A study of Homo sapiens with 27 samples.

Results

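The genes described here carry glucose into the cell and break it down: the transporters SLC2A1 (GLUT1) and SLC2A3 (GLUT3), the hexokinases HK1 and HK2, the regulator PFKFB3, the glycolytic enzymes ALDOA, PGK1 and ENO1, lactate dehydrogenase A (LDHA) and the transcription factor subunit HIF1A. They were chosen by name from the pathway, and each was read through every array probe whose current symbol or alias was that gene. Of these 10 genes, 9 had a named probe, with 10 probes in all among the 30968 of the array, and PFKFB3 had 2 of them. SLC2A3 had no named probe and is not analysed here. In LPS-treated cells, PFKFB3 was 2.67-fold higher than in untreated cells, HK2 was 1.92-fold lower and ALDOA was 2.00-fold lower. The HK2 and ALDOA calls were lost in the values as deposited, without quantile normalisation, while the PFKFB3 call was kept. None of the 9 genes passed the test between PBD150 plus LPS and LPS alone.

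RNA was measured in U937, an established human line grown from a histiocytic lymphoma. The labels call the treated cells macrophages but name no agent that would differentiate them. The groups were untreated cells, cells treated with 4 µg/ml of LPS (lipopolysaccharide, from the outer wall of bacteria), and cells given the glutaminyl cyclase inhibitor PBD150 at 10 µM for 2 h before LPS at 4 µg/ml all cultured for 48 h. Each of the 3 groups had 3 biological replicates, each hybridised to 3 one-colour arrays, 27 arrays in all. No group given PBD150 without LPS is analysed here, so what PBD150 did by itself could not be read. Nothing in the labels says whether the biological replicates were separate cultures, so the p-values measure the spread between these samples, which may be technical.

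Glucose enters cells through the SLC2A transporters and is trapped by hexokinase as glucose 6-phosphate. PFKFB3 makes the small phosphosugar that switches on phosphofructokinase, the main control point of glycolysis, while ALDOA, PGK1 and ENO1 carry the carbon on to pyruvate and LDHA turns pyruvate into lactate. HIF-1, of which HIF1A is the oxygen-regulated subunit, binds a short core sequence in the promoters of many of these genes, and macrophages that meet LPS are known for a shift towards glycolysis.

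Promoter windows chosen from some of these genes are shown so that the HIF core can be seen beside each gene's values. Each is the window from 250 bases before to 50 bases after a start site, taken from RefSeq (build GRCh38.p14), 5′ to 3′ on the gene's strand, which is the plus strand for these windows. Capitals mark ACGTG or GCGTG, the forms of the HIF core, read on either strand (so CACGT and CACGC are also in capitals). Both PFKFB3 windows are shown as the gene that rose, the second HK2 window as a gene that fell, and the PGK1 window and the first LDHA window as known HIF targets that did not pass in any comparison.
PFKFB3, first start, chr10:6144671-6144970: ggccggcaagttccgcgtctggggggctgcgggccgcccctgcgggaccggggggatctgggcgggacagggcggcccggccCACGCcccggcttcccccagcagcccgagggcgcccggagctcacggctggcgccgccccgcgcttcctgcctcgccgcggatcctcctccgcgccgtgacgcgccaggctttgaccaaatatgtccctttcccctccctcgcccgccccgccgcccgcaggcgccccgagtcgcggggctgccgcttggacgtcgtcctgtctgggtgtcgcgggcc
PFKFB3, second start, chr10:6202682-6202981: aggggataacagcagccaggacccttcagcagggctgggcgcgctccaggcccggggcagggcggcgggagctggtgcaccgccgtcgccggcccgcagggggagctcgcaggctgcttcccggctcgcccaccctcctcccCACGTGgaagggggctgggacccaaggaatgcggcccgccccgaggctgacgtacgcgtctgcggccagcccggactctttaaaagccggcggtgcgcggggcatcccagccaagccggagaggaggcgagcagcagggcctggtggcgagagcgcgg
HK2, second start, chr2:74834920-74835219: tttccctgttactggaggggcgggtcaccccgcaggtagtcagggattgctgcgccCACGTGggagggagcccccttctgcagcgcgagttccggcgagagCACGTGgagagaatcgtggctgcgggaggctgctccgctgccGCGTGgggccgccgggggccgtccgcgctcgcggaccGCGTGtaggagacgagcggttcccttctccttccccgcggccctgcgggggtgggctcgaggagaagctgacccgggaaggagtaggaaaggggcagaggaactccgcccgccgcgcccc
PGK1, chrX:78103998-78104297: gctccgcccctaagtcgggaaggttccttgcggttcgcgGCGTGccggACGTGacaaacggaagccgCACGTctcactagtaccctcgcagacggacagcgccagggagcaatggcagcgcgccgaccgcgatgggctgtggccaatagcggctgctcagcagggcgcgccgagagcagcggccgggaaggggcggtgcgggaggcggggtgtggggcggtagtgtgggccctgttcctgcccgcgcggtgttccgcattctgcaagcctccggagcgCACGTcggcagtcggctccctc
LDHA, first start, chr11:18394313-18394612: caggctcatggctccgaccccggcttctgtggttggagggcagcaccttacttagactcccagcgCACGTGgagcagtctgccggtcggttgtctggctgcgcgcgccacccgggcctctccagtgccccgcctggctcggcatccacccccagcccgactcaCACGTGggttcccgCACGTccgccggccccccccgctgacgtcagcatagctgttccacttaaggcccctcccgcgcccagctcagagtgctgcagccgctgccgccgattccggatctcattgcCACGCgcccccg

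The LDHA window held 5 matches to ACGTG and 1 to GCGTG, the HK2 window 4 and 2, and the PGK1 window 3 and 1. The second PFKFB3 window held 2 matches to ACGTG, both within 1 copy of CACGTG, the E-box that overlaps the HIF core and reads the same on each strand. Every copy of CACGTG counts as 2 matches in this way. The LDHA and HK2 windows held 2 copies each and the PGK1 window 0. The first PFKFB3 window held 1 match to GCGTG. RefSeq listed 21 such windows for 9 of the genes, and 15 of them (71.4%) held either form, against 48.4% of all 35116 windows. ACGTG was in 21.4% of all windows, GCGTG in 36.5% and CACGTG in 7.26%. The windows shown were rich in G and C, from 70% in the LDHA window to 78.3% in the first PFKFB3 window, where the median of all windows was 58.7%. Other windows of these genes went as low as 31.7%, in the second HIF1A window. Windows of 1 gene can overlap, and a match is a description of the letters, not a binding site. Of the windows not shown, the second LDHA window held 0 matches to ACGTG and 1 to GCGTG, and the first HK2 window 2 and 1. The ALDOA windows held 1, 2 and 1 matches to ACGTG and 0 to GCGTG. Counts thus depend on the windows chosen, and the genes are not ranked by them.

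Values are log2 of the deposited intensity, quantile normalised over the 27 arrays and averaged over the 3 arrays of a replicate. A difference is in log2 units with its standard error from limma, p-values are two-sided and adjusted by Benjamini-Hochberg over all 30968 probes, and a gene passed where its adjusted p was under 0.05. Each group has n = 3, an error after ± on a level is the SD over replicates, and a gene with several probes is called from its brightest. A bulk measurement does not tell fewer cells of a type from less RNA per cell. Median array intensity ran from 41.5 to 100.3, and 69.0% to 77.8% of probes lay above each array's noise limit (3 times the root mean square of the values below 0). Untreated replicate 1 was the dimmest, with array medians of 5.37 to 5.55 in log2 against 6.12 to 6.23 in untreated replicates 2 and 3. Over all probes the median SD between replicates was 0.21 in untreated cells, 0.36 with LPS and 0.37 with PBD150 plus LPS. All 10 measured monocyte and myeloid markers were above noise on every array of each group, and their summed linear level per replicate was 7.791e+04 to 7.837e+04 (untreated), 1.146e+05 to 1.176e+05 (LPS alone) and 1.145e+05 to 1.169e+05 (LPS after PBD150). Mean log2 levels in the same groups were 8.95, 15.86 and 15.93 for CD14, 7.83, 12.18 and 12.10 for ITGAM, and 6.96, 11.53 and 11.73 for CSF1R, and 12.05, 8.41 and 8.03 for the granule protease PRTN3. The other markers moved less and not in 1 direction. They stood at 10.96, 12.51 and 12.28 for PTPRC, 11.61, 12.09 and 11.80 for CD33, and 11.09, 10.44 and 10.655 for LYZ. MPO read 7.29, 7.05 and 6.79, and SPI1 6.97, 6.84 and 7.06. ELANE was the brightest of the 10 in untreated cells (SD 0.0015) and read 15.15 with LPS and 15.05 with PBD150 plus LPS. Its untreated level was close to that of ENO1, which was at the top of the scanner's scale, so its change could not be sized. The sums of this list rest mainly on ELANE in untreated cells, and on CD14 and ELANE in both groups given LPS. Their narrow ranges and their rise thus do not describe the list as a whole. Summed over a list, linear marker levels per replicate were 2732 to 3171 (untreated), 3822 to 6149 (LPS) and 3238 to 4845 (PBD150 plus LPS) for 7 T lymphocyte genes and 1086 to 1152, 556.6 to 785.6 and 530.4 to 643.7 for 4 B lymphocyte genes. They were 29.95 to 60.71, 134.6 to 181.9 and 157.9 to 179.1 for 3 epithelial genes and 565.9 to 614.7, 646.5 to 1034 and 860.7 to 1011 for 5 fibroblast genes. The 1 erythroid gene measured stood at 71.03 to 93.31, 89.93 to 121.4 and 30.17 to 94.16, and the part of these lists in the results was not tested. No listed marker was at 0, but COL3A1 was above noise on 1, 0 and 0 of the 9 arrays of the 3 groups. KRT19 was so on 1, 4 and 3 and CDH1 on 1, 3 and 3. The epithelial sums thus rest mainly on EPCAM, at mean log2 levels of 4.71, 7.07 and 7.18.

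**Figure D1:**
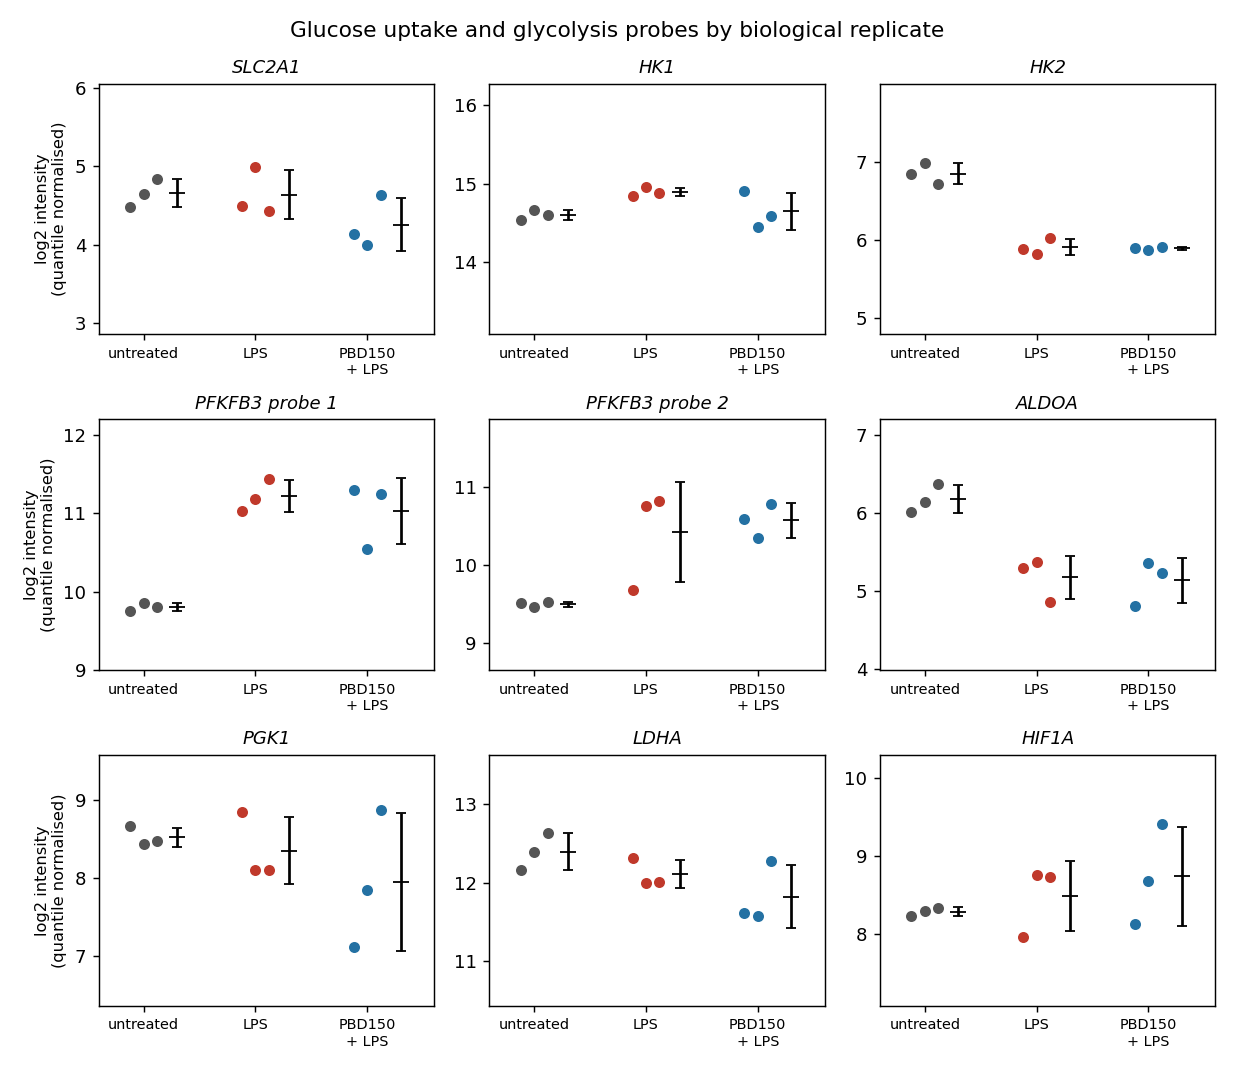
Normalised log2 intensity (vertical axis) of the 9 probes below the top of the scale in untreated, LPS and PBD150 plus LPS cells. Coloured points are the 3 biological replicates of a group and the black bar is the mean with its SD; PFKFB3 probe 1 lies at 9.75 to 9.86 without LPS and at 10.55 to 11.44 in the other groups, while HK2 and ALDOA lie lower in both groups given LPS than in untreated cells.

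The comparison of LPS with untreated cells addresses how these genes responded to LPS. Of the 9 genes, 1 rose (11.1%), 2 fell (22.2%) and 6 did not pass. Over all probes 10.6% rose and 11.8% fell, so the count of risen genes is near the background, and the 2 that fell are too few to set apart from it. The median difference of the 8 genes below the top of the scale was -0.09, beside 0.05 over all named genes. The replicates of the groups did not overlap for 3 of the 9 probes below the top of the scale in the upward direction and for 2 in the downward, where 23.4% and 20% of all probes did so.

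PFKFB3 was the gene that rose. Its first probe read 9.75, 9.86 and 9.81 in untreated replicates 1 to 3, and 11.03, 11.19 and 11.44 with LPS. Every LPS replicate was above every untreated one. The means were 9.81 ± 0.06 and 11.22 ± 0.21, a difference of 1.42 ± 0.24 (95% interval 0.87 to 1.96, limma adjusted p = 0.00337). The second probe read 9.51, 9.46 and 9.52 in untreated cells and 9.68, 10.75 and 10.82 with LPS. LPS replicate 1 was close to the untreated values there, and the other two stood well above them. The difference of 0.92 ± 0.31 did not pass (limma adjusted p = 0.0654), although the replicates did not overlap. Without LPS replicate 1 it was 1.29 and passed (limma adjusted p = 0.00264). The first probe passed under all 17 alternative settings tried, with differences from 1.26 to 1.74.

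Of the hexokinases, HK2 fell and HK1 did not pass. HK2, the inducible hexokinase, read 6.84, 6.99 and 6.72 in untreated cells and 5.89, 5.82 and 6.03 with LPS. The groups did not overlap, and HK2 fell by 0.94 ± 0.17 (95% interval -1.32 to -0.56, limma adjusted p = 0.00411). HK1, the hexokinase found in most tissues, read 14.54, 14.66 and 14.60 in untreated cells and 14.84, 14.95 and 14.88 with LPS. Every LPS replicate of HK1 was above the untreated ones, yet the difference of 0.29 ± 0.18 did not pass (95% interval -0.12 to 0.70, limma adjusted p = 0.305). HK2 was less repeatable between arrays of 1 replicate than these means show: the median SD between technical arrays was 0.65 with LPS and 0.16 in untreated cells. The 3 arrays of LPS replicate 1 read 4.76, 6.37 and 6.53 for HK2, so the first array there stood far below the other two.

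**Figure D2:**
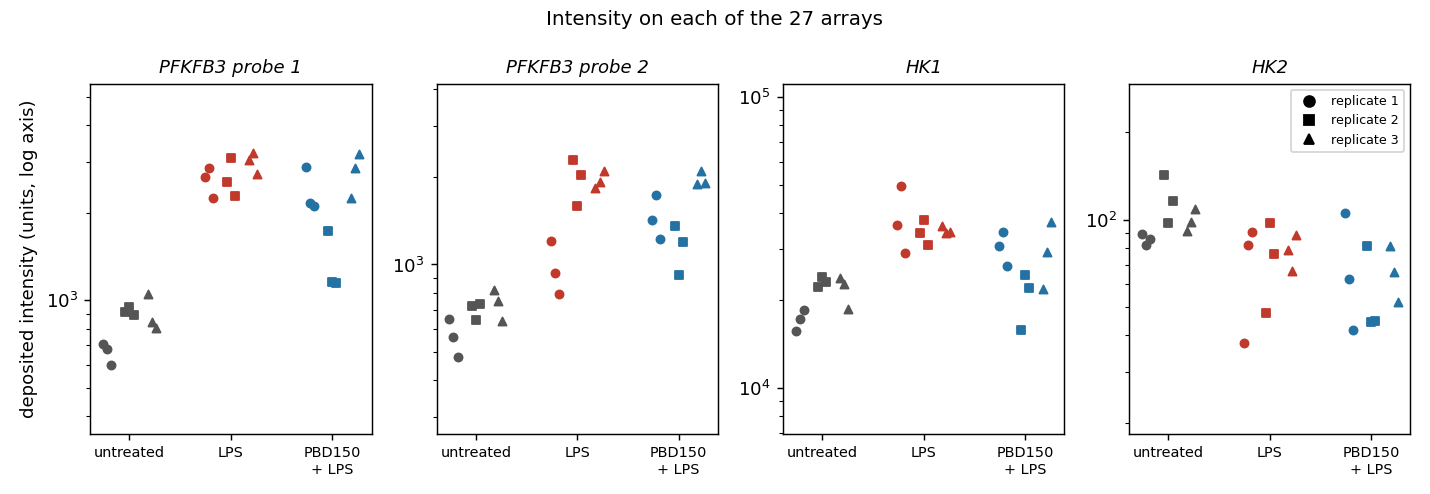
Deposited intensity (log axis, before any normalisation here) of both PFKFB3 probes, HK1 and HK2 on each of the 27 arrays; colour gives the group and the marker shape the biological replicate, with its 3 technical arrays side by side. PFKFB3 probe 1 reads 601 to 1050 in untreated cells and 2257 to 3220 with LPS with no overlap, HK1 also stands higher with LPS, and HK2 at 82.1 to 143 in untreated cells overlaps the 37.8 to 97.4 of the LPS arrays.

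Among the enzymes further down, ALDOA, the aldolase of muscle and most other tissues, read 6.02, 6.14 and 6.37 in untreated cells and 5.29, 5.37 and 4.86 with LPS. The groups did not overlap, and ALDOA fell by 1.00 ± 0.23 (95% interval -1.52 to -0.48, limma adjusted p = 0.0144). Its means were 6.18 ± 0.18 and 5.17 ± 0.28. The probe was dim, though above noise on 9 of 9 arrays of each group. Its deposited intensities overlapped, at 29.1 to 86.0 on untreated arrays and 23.9 to 90.4 on LPS arrays. The median SD between technical arrays was 0.32 in untreated cells and 0.62 with LPS. The call was lost without untreated replicate 3 (-0.90, limma adjusted p = 0.0609) and without LPS replicate 3 (-0.84, limma adjusted p = 0.0503). PGK1, which makes the first ATP of the pathway's lower part, read 8.66, 8.43 and 8.47 in untreated cells and 8.84, 8.10 and 8.10 with LPS. LPS replicate 1 was above all 3 untreated values and the others below them, and the difference of -0.17 ± 0.42 did not pass (limma adjusted p = 0.814). ENO1, the main enolase, was at the top of the scanner's scale on all 9 arrays of each group, so neither a level nor a difference could be read for it.

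LDHA, the lactate-forming subunit, read 12.16, 12.39 and 12.63 in untreated cells and 12.31, 11.99 and 12.01 with LPS. The groups overlapped and the difference was -0.29 ± 0.25 (limma adjusted p = 0.455). SLC2A1, the transporter of basal glucose uptake, read 4.48, 4.64 and 4.84 in untreated cells and 4.49, 4.998 and 4.43 with LPS. This probe was dim, above noise on 8 of 9 untreated arrays, 7 of 9 LPS arrays and 6 of 9 arrays with PBD150 plus LPS. Its difference was -0.01 ± 0.25 (95% interval -0.58 to 0.55). HIF1A read 8.23, 8.30 and 8.34 in untreated cells and 7.97, 8.76 and 8.73 with LPS. Its LPS replicates lay on both sides of the tight untreated values, and the difference was 0.20 ± 0.34 (limma adjusted p = 0.736).

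SLC2A14, a close copy of SLC2A3 in sequence, was added outside the rule for named genes, and whether the SLC2A14 probe also reads SLC2A3 is not known. SLC2A14 read 6.11, 6.54 and 6.63 in untreated cells, 6.24, 6.50 and 6.43 with LPS, and 6.44, 6.88 and 6.49 with PBD150 plus LPS. The groups overlapped throughout, and its differences of -0.04, 0.21 and 0.18 did not pass.

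How the arrays were scaled matters for these calls. The LPS arrays were brighter as deposited: without quantile normalisation the median probe stood 0.41 above untreated, against 0.08 with it and -0.07 after median centring. The share of calls that were increases was then 72.9%, against 47.3% with quantile normalisation and 37.5% after median centring. As deposited, HK2 differed by -0.49 (limma adjusted p = 0.123) and ALDOA by -0.59 (limma adjusted p = 0.181), so both calls were lost. HK1 differed by 0.79 and passed (limma adjusted p = 0.0385), and both PFKFB3 probes passed. The differences of SLC2A1, PGK1 and LDHA, none of which passed, turned positive. Set against the median of all probes, the called genes stood on the 2 scales at -1.02 and -0.91 for HK2, -1.08 and -1.001 for ALDOA, and 1.34 and 1.32 for PFKFB3. HK1, whose call changed, moved from 0.21 to 0.38.

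PBD150 plus LPS against LPS asks whether the inhibitor altered the response to LPS. Of the 9 genes, 0 passed, and 0 of all 30968 probes did (0%); the smallest adjusted p of any probe was 0.414 by limma. At an unadjusted p under 0.05 there were 0 of the 9 genes and 5.11% of all probes. No probe of these genes had groups that did not overlap, where 7.98% of all probes did. The 8 genes below the top of the scale had differences from -0.40 to 0.25 with a median of -0.22, 7 below 0 and 1 above. For 6 of those 8 genes the 95% interval lay within 2-fold in either direction, 5 where the fit used these 2 groups alone and 4 in the values as deposited or without LPS replicate 3. PGK1 and HIF1A were the 2 genes with wider intervals; as deposited they were PGK1, SLC2A1, PFKFB3 and LDHA, so that bound changes with the scaling.

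For the genes called with LPS, the group given the inhibitor overlapped the LPS group. PFKFB3 probe 1 read 11.30, 10.55 and 11.25 with PBD150 plus LPS, with replicate 2 below the lowest LPS value and the others inside the LPS range. The difference from LPS was -0.19 ± 0.24 (95% interval -0.73 to 0.36). PFKFB3 probe 2 read 10.59, 10.34 and 10.78, between the lowest and the highest LPS replicate, with a difference of 0.15 ± 0.31 (95% interval -0.55 to 0.85). HK2 read 5.90, 5.87 and 5.91, within the LPS range, and differed by -0.02 ± 0.17 (95% interval -0.40 to 0.36). ALDOA read 4.82, 5.36 and 5.24 and differed by -0.04 ± 0.23 (95% interval -0.56 to 0.48). For none of these probes does a missed threshold show that the groups are alike.

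The other genes spread more. HK1 read 14.91, 14.44 and 14.58 with PBD150 plus LPS, replicates 2 and 3 being below every LPS value, and differed from LPS by -0.25 ± 0.18 (95% interval -0.66 to 0.17). LDHA read 11.61, 11.57 and 12.28 and differed by -0.28 ± 0.25 (95% interval -0.84 to 0.28). SLC2A1 read 4.13, 3.99 and 4.64 and differed by -0.39 ± 0.25 (95% interval -0.95 to 0.18). For both, replicates 1 and 2 lay under the LPS range and replicate 3 inside it. PGK1 read 7.11, 7.84 and 8.87, which spans more than the LPS and untreated values together, and differed by -0.40 ± 0.42 (95% interval -1.36 to 0.55). HIF1A read 8.14, 8.68 and 9.41, with replicate 3 above every other value of the gene, and differed by 0.25 ± 0.34 (95% interval -0.53 to 1.04).

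**Figure D3:**
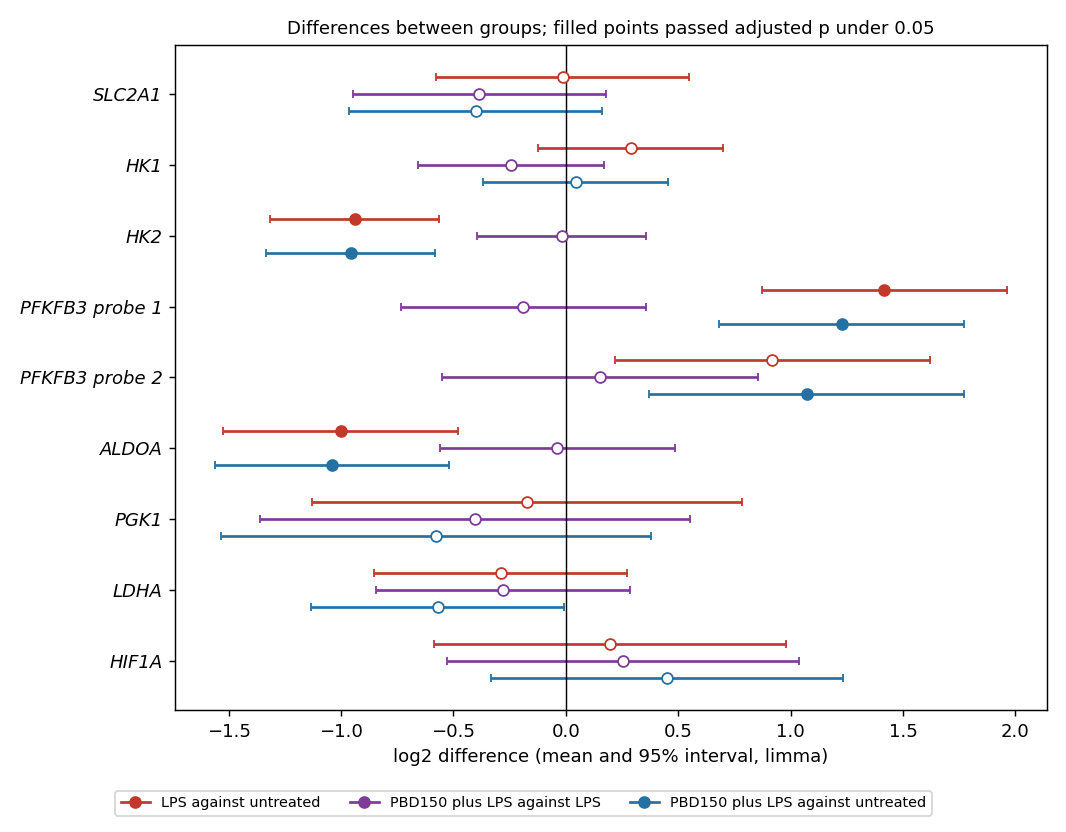
Log2 difference (horizontal axis) with its 95% interval from limma for each probe below the top of the scale in the 3 comparisons; filled points passed an adjusted p under 0.05. PFKFB3 stands at 1.42 and 1.23 against untreated and HK2 at -0.94 and -0.96, while every interval for PBD150 plus LPS against LPS crosses 0.

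PBD150 plus LPS against untreated shares its untreated replicates with the first comparison, so the 2 are not independent. Of the 9 genes, 1 rose and 2 fell, where 12.6% of all probes rose and 13.5% fell. The median of the 8 genes below the top of the scale was -0.49, beside 0.06 over all named genes. Groups did not overlap for 2 probes in each direction, where 24% of all probes did so upward and 21.3% downward. PFKFB3 probe 1 was 2.34-fold higher (1.23 ± 0.24, limma adjusted p = 0.00596) and probe 2 was 2.10-fold higher (1.07 ± 0.31, limma adjusted p = 0.0336). The second probe's call was lost when any one of the untreated or PBD150 plus LPS replicates was left out, with differences of 0.96 to 1.19. HK2 fell by 0.96 ± 0.17 (limma adjusted p = 0.00329) and ALDOA by 1.04 ± 0.23 (limma adjusted p = 0.0107); as deposited HK2 still passed at -0.70 and ALDOA did not at -0.79 (limma adjusted p = 0.0871).

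The remaining differences from untreated did not pass: -0.57 ± 0.25 for LDHA (limma adjusted p = 0.127), -0.58 ± 0.42 for PGK1, 0.45 ± 0.34 for HIF1A, -0.40 ± 0.25 for SLC2A1 and 0.04 ± 0.18 for HK1. Replicate 3 of PBD150 plus LPS was the highest of its group for LDHA, PGK1, SLC2A1 and HIF1A. Without it LDHA differed by -0.80 (limma adjusted p = 0.0253) and PGK1 by -1.04 (limma adjusted p = 0.0440), and both passed.

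The balance of the 2 hexokinases was read as HK2 minus HK1 within each replicate, where a brighter or dimmer array cancels. Different probes have no common scale, so only its change between groups is informative. It was -7.69, -7.67 and -7.88 in untreated replicates, -8.95, -9.12 and -8.85 with LPS, and -9.01, -8.57 and -8.67 with PBD150 plus LPS. Both groups given LPS lay below untreated without overlap, and overlapped each other. The change with LPS was -1.23 (exact two-sided permutation p = 0.1, the smallest that 3 against 3 allows), and it was -1.29 in the values as deposited. With PBD150 plus LPS the change from untreated was -1.001 (exact permutation p = 0.1), and the change from LPS was 0.23 (exact permutation p = 0.3).

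**Figure D4:**
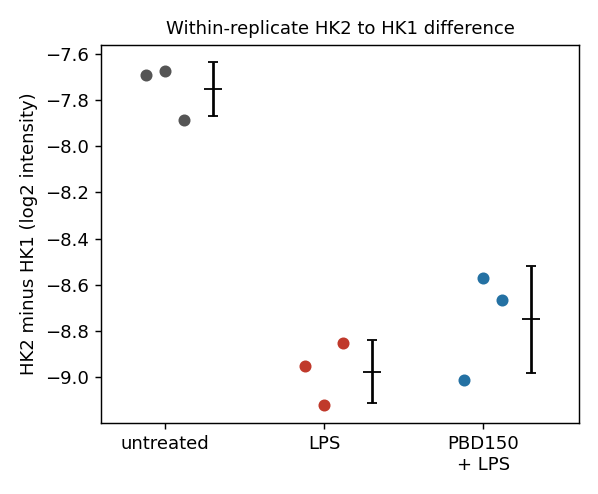
HK2 minus HK1 in normalised log2 intensity (vertical axis) within each biological replicate; points are the 3 replicates of a group and the black bar is the mean with its SD. Untreated cells lie at -7.88 to -7.67 and both groups given LPS at -9.12 to -8.57.

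The genes whose 9 replicate values ran most closely with PFKFB3, the member with the largest difference between LPS and untreated, were TNIP2 (Pearson r = 0.987), ADPGK (0.986) and ZNFX1 (0.985), out of 9259 candidates at or above the brightness of the median probe. TNIP2 is a regulator of NF-κB signalling, and ADPGK phosphorylates glucose with ADP. With ALDOA, the member with the lowest difference, they were AARS2 (r = 0.988), CCNE1 (0.987) and VPS53 (0.979). AARS2 charges mitochondrial alanine transfer RNA and CCNE1 is cyclin E1. These are the highest of many correlations over 9 replicates in 3 groups and are given as descriptions.

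Around these genes, 9 lists of other transporters, enzymes and regulators held 103 genes, of which 92 had a named probe. Against untreated, 13 rose with LPS (14.1%) and 11 fell (12%), where all probes gave 10.6% and 11.8%. In values as deposited the same lists gave 23 and 8. On that scale 5935 of all 30968 probes rose and 2205 fell, against 3292 and 3664 in the normalised values. With PBD150 plus LPS against untreated 18 rose (19.6%) and 12 fell (13%), where all probes gave 12.6% and 13.5%. Of those 30 calls, 12 were lost under at least 1 alternative. Between PBD150 plus LPS and LPS 0 of the 92 passed in limma, and 2 had an unadjusted p under 0.05: the urate and hexose transporter SLC2A9 at -1.05 and the carbonic anhydrase CA12, which was above noise on 7 of 9 LPS and 1 of 9 PBD150 plus LPS arrays. SLC2A9 was above noise on 9 and 6 of them. The genes with the smallest p in the other lists there, none of which passed, included PGAM2 (0.59), ENO2 (0.40), PDK3 (-0.39), PGLS (0.30), VHL (0.83), PYGM (-0.48), PYGL (-0.37) and PRKAA1 (-0.47). With LPS, VHL read 7.78, 10.29 and 10.28 and PGLS 10.69, 11.98 and 11.76, so these differences rest on LPS replicate 1. HIF3A (0.83) and SLC2A12 (-0.66) were each above noise on 6 of 9 arrays of 1 group.

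Of 11 other glucose and hexose transporters, 0 passed with LPS, with a median of 0.33. SLC2A11 stood at -1.05 and the insulin-responsive transporter SLC2A4 at 0.48. SLC2A13, the myo-inositol carrier, was above noise on 0 of 9 untreated and 4 of 9 LPS arrays, and no difference is read for it. SLC2A6, a lysosomal hexose transporter of macrophages, came to 0.78 (limma adjusted p = 0.0804). Of 14 other glycolytic enzymes measured, 3 rose and 0 fell, with a median of 0.00. GPI, whose value enters that median, was at the top of the scale on 9 of 9 untreated and 9 of 9 LPS arrays, and no difference is read for it. GAPDH, TPI1 and PGAM1 had no named probe. The 3 were isoforms best known from other tissues: ENO3, the muscle enolase, at 1.41 (limma adjusted p = 0.000718), ALDOC, the brain aldolase, at 0.95 (limma adjusted p = 0.00495), and PGK2, the testis copy of PGK1, at 1.80 (limma adjusted p = 0.0307). ENO3 read 8.89, 8.98 and 8.74 in untreated cells and 10.27, 10.44 and 10.13 with LPS, with no overlap. PGK2 was above noise on 1 of 9 untreated and 6 of 9 LPS arrays, and reads of this dim probe could include its close copy PGK1. HK3, the hexokinase of blood cells, was 2.15 higher without passing (limma adjusted p = 0.051), its LPS replicates lying at 5.76, 8.31 and 7.89 and its untreated ones at 6.09, 4.59 and 4.83. With PBD150 plus LPS against untreated, 5 of the 14 enzymes rose and 1 fell. HK3 rose there by 2.41 (limma adjusted p = 0.0298), a call kept under 11 of 17 alternatives. ENO2 rose by 0.87, kept under 10, and the phosphofructokinase PFKP was at -0.74, kept under 15.

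The 6 genes that set the level of PFKFB3's product or oppose phosphofructokinase differed by 0.09 to 1.11 with LPS, with a median of 0.71. Of them FBP1, which reverses the phosphofructokinase step, rose by 0.97 (limma adjusted p = 0.0168), and the other isoforms PFKFB4 (0.69), PFKFB1 (0.61) and PFKFB2 (1.11) did not pass. With PBD150 plus LPS, FBP1 (1.07), PFKFB1 (1.13) and PFKFB2 (1.71) rose from untreated. The PFKFB2 call was lost with the replicate block, with these 2 groups alone in the fit, and without untreated replicate 1 or 2 or PBD150 plus LPS replicate 1 or 3, its difference running from 1.27 to 2.13 over the alternatives. PFKFB1 read 8.95, 8.95 and 9.07 in untreated cells, 9.15, 9.73 and 9.94 with LPS, and 10.38, 10.17 and 9.81 with PBD150 plus LPS. The last 2 groups overlapped for it, and their difference of 0.52 did not pass.

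Lactate and pyruvate handling had a median of -0.41 with LPS, with 5 of 15 genes lower and 0 higher. SLC16A1 (MCT1), which moves lactate and pyruvate across the cell membrane, read 12.23, 12.05 and 12.04 in untreated cells, 9.46, 9.79 and 9.74 with LPS, and 9.41, 9.77 and 9.64 with PBD150 plus LPS. It fell by 2.44 ± 0.19 with LPS (limma adjusted p = 7.76e-05), the untreated values lying far above both other groups. PDHA1 and DLAT, subunits of the pyruvate dehydrogenase complex that sends pyruvate into the mitochondrial cycle, fell by 1.69 and 2.14. DLAT was above noise on 9 of 9 untreated but 5 of 9 LPS arrays, so part of its LPS level lay at background. It read 6.39, 5.84 and 5.95 in untreated cells and 5.33, 3.38 and 3.05 with LPS. LPS replicate 1 thus fell far less than the others, and the size of the fall is uncertain. MPC1, a subunit of the mitochondrial pyruvate carrier, fell by 0.84, and SLC16A7, another lactate carrier named after its values were seen, by 0.93, above noise on 7 of 9 LPS arrays. As deposited MPC1 stood at -0.43 and SLC16A7 at -0.55, and neither passed, which left 3 of the list lower. LDHB had no named probe.

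In the pentose phosphate pathway, 2 of 7 genes rose with LPS and 2 fell. The median of -0.02 is the value of TKT, which was at the top of the scale on 9 LPS and 8 untreated arrays. TALDO1 was there on 9 LPS and 0 untreated arrays, and no difference is read for TKT or TALDO1. The genes that rose both encode enzymes that form NADPH: PGD by 1.21 (limma adjusted p = 0.00313) and H6PD, its counterpart in the endoplasmic reticulum, by 1.32 (limma adjusted p = 0.00515). The sugar-phosphate isomerase RPIA fell by 2.43 (limma adjusted p = 7.66e-05), from 12.99, 12.69 and 12.68 to 10.46, 10.30 and 10.29, and the epimerase RPE fell by 1.599. In glycogen metabolism 0 of 9 rose and 2 fell, with a median of 0.12: the branching enzyme GBE1 by 1.83 (limma adjusted p = 0.000229) and the phosphoglucomutase PGM1 by 1.16 (limma adjusted p = 0.00163). That median is the value of PPP1R3C, above noise on 2 of 9 LPS and 1 of 9 untreated arrays. GYG1, also counted there, was above noise on 0 of 9 arrays of either group, and no difference is read for PPP1R3C or GYG1. The phosphorylase PYGB (0.47) and UGP2 (-0.72), which makes UDP-glucose, did not pass.

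Of 9 HIF regulators, 1 rose with LPS and 0 fell, with a median of -0.18. The gene that passed was ARNT2, a partner subunit of HIF factors, at 0.67 (limma adjusted p = 0.039), and the common partner ARNT stood at 0.74 without passing (limma adjusted p = 0.0836). EGLN3, an oxygen-sensing hydroxylase, was above noise on 3 of 9 untreated arrays and on 0 of 9 LPS arrays. Of 12 known HIF targets outside glycolysis, 4 rose and 1 fell, with a median of 0.53. Those that rose were ADM (3.68), DDIT4 (3.04), NDRG1 (1.62) and MXI1 (1.32), which encode a vasodilator peptide, an mTOR inhibitor, a stress protein and a MYC antagonist. VEGFA, the angiogenic factor, named after its values were seen, fell by 1.13 (limma adjusted p = 0.0167). ADM read 4.26, 5.27 and 5.04 in untreated cells and 7.96, 8.35 and 9.30 with LPS, with no overlap.

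Among 9 glucose-responsive and insulin-linked regulators, 2 rose and 1 fell with LPS, with a median of 0.76. TXNIP, which restrains glucose uptake and is itself induced by glucose, rose most of all the listed genes. It read 9.82, 9.86 and 9.83 in untreated cells, 14.003, 13.56 and 13.41 with LPS, and 13.59, 13.66 and 13.77 with PBD150 plus LPS. The LPS difference was 3.82 ± 0.20, 14.1-fold (limma adjusted p = 1.4e-05), and PBD150 plus LPS overlapped LPS. AKT1, a kinase of insulin signalling, fell by 1.82 (limma adjusted p = 0.00815), and its relative AKT2 rose by 0.76 (limma adjusted p = 0.0384). PRKAA2, a catalytic subunit of AMP-activated kinase, was above noise on 1 of 9 untreated arrays and 0 of 9 in each group given LPS.

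Of the 24 list genes called with LPS, 16 passed under all 17 alternatives, ENO3, ALDOC, SLC16A1, PDHA1, RPIA, PGD, DDIT4, ADM, GBE1 and TXNIP among them. The other 8 lost the call under some: VEGFA passed under 14, FBP1 under 13, DLAT under 12, MPC1 under 11, PGK2 under 10, AKT2 under 9, ARNT2 under 7 and SLC16A7 under 5. Leaving out 1 replicate ended the call of VEGFA (untreated replicate 1 or 2), FBP1 (untreated replicate 1 or 2, LPS replicate 2 or 3), DLAT (untreated replicate 1 or 3, LPS replicate 2 or 3), MPC1 (untreated replicate 2 or 3, LPS replicate 2 or 3) and PGK2 (untreated replicate 2 or 3, LPS replicate 1 or 3). The calls of AKT2, ARNT2 and SLC16A7 ended without most single replicates. Over the alternatives the LPS difference ran from -1.36 to -0.79 for VEGFA, 0.86 to 1.34 for FBP1, -2.84 to -1.28 for DLAT, -1.01 to -0.43 for MPC1 and 0.56 to 2.17 for PGK2. It ran from 0.63 to 1.11 for AKT2, 0.56 to 1.07 for ARNT2 and -1.20 to -0.55 for SLC16A7, each with the sign it had before.

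**Figure D5:**
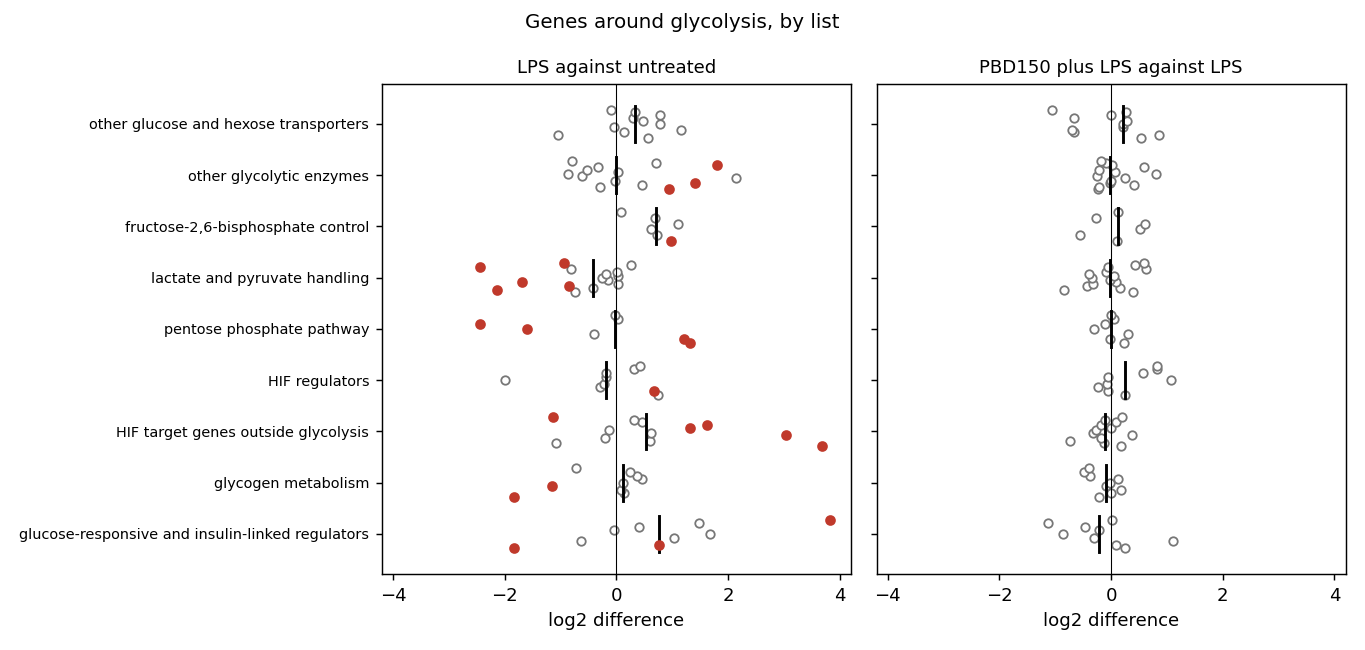
Log2 difference (horizontal axis) of each measured gene in the 9 lists, for LPS against untreated (left) and PBD150 plus LPS against LPS (right); filled points passed an adjusted p under 0.05 and the black bar is the median of a list. With LPS, points passed on both sides of 0, from SLC16A1 at -2.44 to TXNIP at 3.82, and 0 passed between PBD150 plus LPS and LPS.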

How the data were processed

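RNA of 9 biological replicates of U937 cells was hybridised to 27 one-colour (Cy5) Phalanx Human OneArray slides, 2.5 µg of total RNA each, per the labels. The deposited values are probe intensities on a linear scale with values below 0, from which a background appears to have been subtracted by the authors; the sources used here name neither a genome build nor how the scanner values were scaled. Intensities under 1 were set to 1, log2 was taken of the deposited values, arrays were quantile normalised and the 3 technical arrays of a replicate averaged. A linear model with 3 group means was fitted over all 30968 probes with limma 3.58.1 in R 4.3.3, and the code was tested on simulated data. HK2 minus HK1 was compared by an exact permutation test; other pairs could not be read because SLC2A3 and LDHB had no named probe.

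The platform table gave 17397 probes 1 symbol and left 13571 unnamed here; 14670 symbols were current, 2645 were updated through RefSeq and 82 had no match, giving 15207 genes. The genes, the lists around them and the rule for naming genes were chosen with earlier results of these data known. The text names every member. In each list it names up to 4 genes with the smallest p for LPS against untreated. Up to 2 are named for PBD150 plus LPS against LPS, and for 2 members the 3 genes nearest in pattern. SLC2A14, SLC16A7, VEGFA, TKT, TALDO1, GPI, PFKP, PPP1R3C, GYG1 and the cell type markers were added outside the rule. Array number and the dim probes limit precision. Alternatives changed the scaling, the pseudocount (16), the probe filter, the fit and the replicates used. Replicate numbers were not taken to pair samples, since the correlation of same-numbered deviations ran from -0.22 to 0.04.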

Additional observations from a re-analysis of the deposited data

How the results depend on the processing

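Of the probe differences of the 9 genes under the alternatives, 415 kept their direction and side of the threshold, 10 passed that had not, 13 no longer passed and 21 changed sign. No difference that had passed changed sign, and for the other calls that changed the cause was not tested. As deposited, the genes higher with LPS numbered 2 and those lower 0, and those lower with PBD150 plus LPS against untreated numbered 1. As deposited, SLC2A1 differed by 0.31 with LPS, PGK1 by 0.18 and LDHA by 0.069, and PFKFB3 probe 2 by -0.055 between PBD150 plus LPS and LPS. With array weights, SLC2A1 differed by 0.11 with LPS, and between PBD150 plus LPS and LPS HK2 differed by 0.0004, PFKFB3 probe 2 by -0.16 and HIF1A by -0.10. Leaving out 1 replicate left 1 to 2 genes lower in the LPS comparison, and for PBD150 plus LPS against untreated 2 to 4, the 4 without PBD150 plus LPS replicate 3. SLC2A1 then ran from -0.19 to 0.090 with LPS and HK1 from -0.090 to 0.14 with PBD150 plus LPS against untreated. Between PBD150 plus LPS and LPS, HK2 ran from -0.064 to 0.039, PFKFB3 probe 1 from -0.32 to 0.051, PFKFB3 probe 2 from -0.21 to 0.35, ALDOA from -0.20 to 0.12, PGK1 from -0.87 to 0.0097 and HIF1A from -0.079 to 0.55.

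With the replicate number as a block, 2508 probes rose and 2897 fell with LPS against 3292 and 3664 without it, PFKFB3 probe 2 no longer passed for PBD150 plus LPS against untreated (1.07, limma adjusted p = 0.0543), and the other member calls stood. Over all probes with LPS, 5935 rose and 2205 fell as deposited and 5458 and 5552 with array weights. With all arrays and a random culture effect, 1 probe rose and 13 fell between PBD150 plus LPS and LPS. Of the counts per list, 791 stayed within 1.5 times, 65 rose and 62 fell beyond that. Over the lists with PBD150 plus LPS against untreated, 18 rose in the reported fit, 10 without untreated replicate 2 or without PBD150 plus LPS replicate 1, and 11 with the replicate block. SLC2A1, PGK2, DLAT, CA12 and SLC2A13 lie near the noise limit, which limits what their probes can show, and ENO1 at the top of the scale was not followed.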
